A study of Mus musculus with 2 samples.

Results

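The genes described here are 10 genes of glandular water and ion transport, calcium handling and secretory cell regulation, out of 19939 genes that had a probe set of their own on the array. They are Aqp5, Slc12a2, Slc5a8, Atp2a3, Elapor1, Bhlha15, Xbp1, Creb3l1, Spdef and Epcam, each represented by 1 probe set. They were listed by function and selected on the signals of these same arrays, which were known when the list was made, so their differences between the arrays are a description and no test is made on them. Mandibles of mouse fetuses at E18.5 (embryonic day), shortly before birth, were profiled on Affymetrix arrays, 1 array from wild-type BALB/c tissue and 1 from BALB/c tissue null for both Myf5 and MyoD. Both groups share the strain, the age, the tissue and 6 µg of total RNA as starting material. Myf5 and MyoD commit cells to skeletal muscle, and the series asks what muscle contributes to development of the lower jaw. The number of fetuses behind each sample is not stated in the labels. Each genotype has 1 array, so no value has a replicate error and no p-value is given.

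Salivary acinar cells secrete fluid and protein. Acetylcholine raises calcium in the cell, calcium opens an apical chloride channel, and chloride, sodium and then water move into the lumen. The cotransporter Slc12a2 loads chloride from the blood side, the water channel Aqp5 lets water out on the lumen side, and calcium pumps return calcium to the endoplasmic reticulum (ER). Proteins of saliva are folded in the ER, passed to the Golgi and stored in granules. The factors Xbp1 and Creb3l1 act on the ER and the secretory route, Bhlha15 (Mist1) sets up the granule-filled state of serous cells, and Spdef acts in mucous and goblet cells. The jaw sample can hold salivary tissue beside bone, teeth, skin, oral epithelium and muscle.

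All 10 genes had a higher signal on the double-knockout array, and 5 of them were at least 2-fold higher. A signal here is the deposited log2 value of a probe set. A difference is double knockout minus wild type after any value under the floor was raised to it, where the floor is the median of all probe sets with 1 annotated gene on that array, 6.20 for the wild type and 6.21 for the double knockout. A gene is called measured if it lies above the floor on at least 1 array. All 10 genes were measured, with 7 wild-type values and 10 double-knockout values over the floor. The other 3, Elapor1, Bhlha15 and Spdef, had wild-type values under the floor, and their differences are lower bounds. As background, 53 of 10336 measured genes (0.513%) were past 2-fold in this direction and 283 (2.74%) were past it in the other. At 1.5-fold the count was 6 of the 10 genes beside 3.06% of measured genes, and at 3-fold it was 4 of 10 beside 0.174%. A difference above 0 was common, as 66.9% of measured genes had one. The median difference over all measured genes was 0.10, against 1.13 over the 10 genes. Because the genes were chosen with this contrast in view, nothing is read from these shares.

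**Figure D1:**
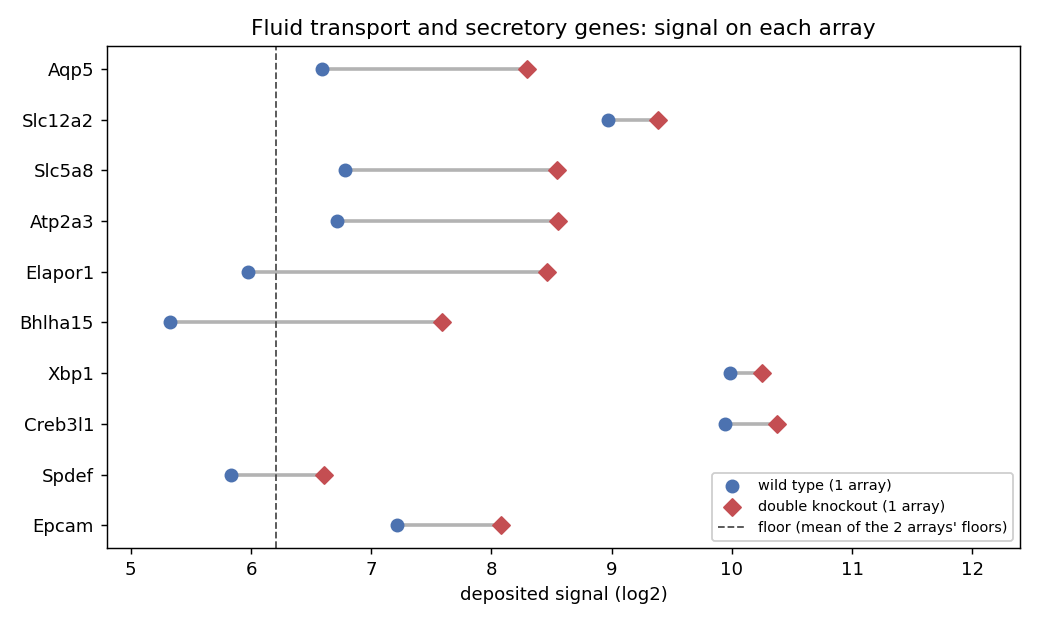
Deposited log2 signal of the 10 genes for the wild type (circles) and the double knockout (diamonds), with the floor as a dashed line. Every diamond lies to the right of its circle, and the gap is wide for Elapor1, Bhlha15, Atp2a3, Slc5a8 and Aqp5 and narrow for Xbp1, Slc12a2 and Creb3l1.

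The 10 genes fell into a group far apart on the arrays and a group only slightly apart. Aqp5, Slc5a8, Atp2a3, Elapor1 and Bhlha15 were low in the wild type, from 5.33 to 6.78, and reached 7.59 to 8.55 in the double knockout. Xbp1, Creb3l1 and Slc12a2 were well above the floor on both arrays and were higher by 0.27 to 0.43. Epcam lay between these groups with a difference of 0.87, and Spdef was close to the floor. Levels of different probe sets are not comparable with each other, so only the differences are set side by side. In bulk tissue, a larger share of a cell type in the sample and more RNA per cell cannot be told apart.

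**Figure D2:**
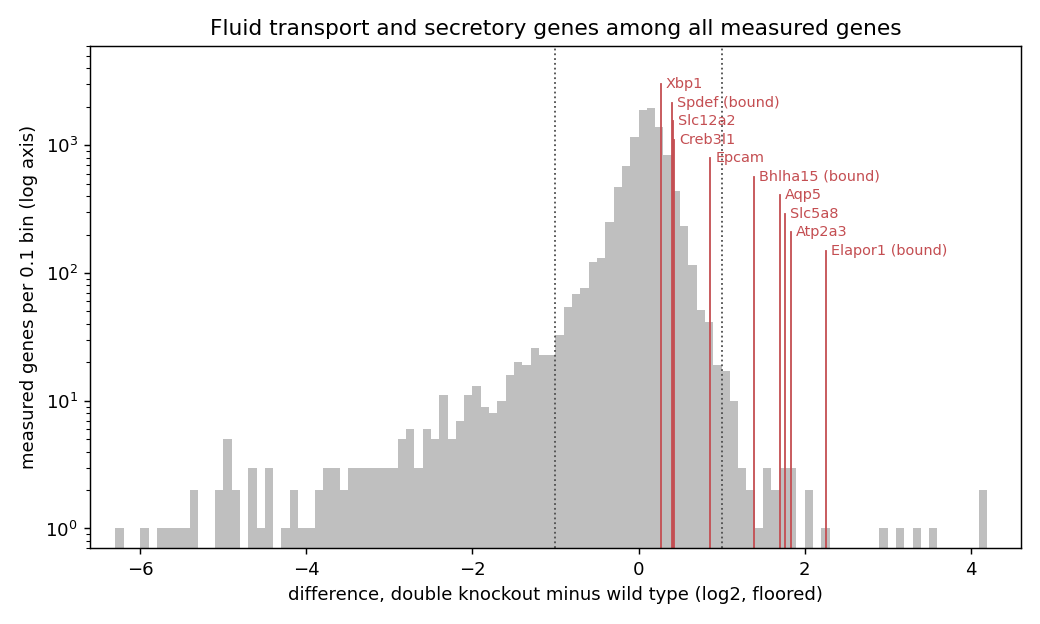
Histogram of the log2 difference (double knockout minus wild type, floored) over 10336 measured genes, on a log count axis, with dotted lines at 2-fold. The 10 genes are drawn as vertical lines whose heights only space the labels; 5 lie to the right of the upper dotted line, and Xbp1 lies inside the main body of genes.

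To show the sequence in front of these genes, the RefSeq promoter windows of GRCm38.p6 (250 bases before the annotated start and 50 after it) were searched. A window was found for 8 of the 10 genes, among 32851 windows in all, and those of Slc12a2 and Creb3l1 are not analysed here. Of the 4 printed, Aqp5, Bhlha15 and Elapor1 belong to the genes far apart on the arrays and Xbp1 to the slightly different ones. Capitals mark the matches, and the strand is that of the gene. The windows lie at chr15:99590778-99591077 (+ strand), chr5:144190036-144190335 (+ strand), chr3:108536492-108536791 (- strand) and chr11:5520391-5520690 (+ strand).
Aqp5: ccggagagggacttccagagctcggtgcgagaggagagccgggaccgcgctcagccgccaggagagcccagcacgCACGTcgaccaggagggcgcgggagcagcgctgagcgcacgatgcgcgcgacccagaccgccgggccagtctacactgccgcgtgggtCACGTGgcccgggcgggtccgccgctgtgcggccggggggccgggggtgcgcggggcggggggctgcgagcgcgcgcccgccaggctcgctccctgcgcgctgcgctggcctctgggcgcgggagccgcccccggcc
Bhlha15: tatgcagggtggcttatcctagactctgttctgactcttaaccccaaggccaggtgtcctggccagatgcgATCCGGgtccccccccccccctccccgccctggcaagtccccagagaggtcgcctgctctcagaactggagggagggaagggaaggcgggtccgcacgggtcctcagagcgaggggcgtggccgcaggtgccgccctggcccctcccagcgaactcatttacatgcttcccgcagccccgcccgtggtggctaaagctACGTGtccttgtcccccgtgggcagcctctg
Elapor1: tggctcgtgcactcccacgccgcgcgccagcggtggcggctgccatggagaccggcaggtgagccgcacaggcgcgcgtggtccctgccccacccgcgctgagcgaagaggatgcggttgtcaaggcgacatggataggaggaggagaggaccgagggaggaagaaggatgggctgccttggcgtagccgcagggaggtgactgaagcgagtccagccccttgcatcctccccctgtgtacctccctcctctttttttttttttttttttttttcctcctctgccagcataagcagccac
Xbp1: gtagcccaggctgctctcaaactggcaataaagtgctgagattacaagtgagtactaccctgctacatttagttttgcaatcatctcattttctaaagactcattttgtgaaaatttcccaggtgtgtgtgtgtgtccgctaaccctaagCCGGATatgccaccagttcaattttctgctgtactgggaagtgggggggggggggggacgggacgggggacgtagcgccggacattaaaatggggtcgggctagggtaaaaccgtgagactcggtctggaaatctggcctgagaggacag
Motifs were searched on both strands. ACGTG, a core shared by sites of Xbp1 and CREB3 factors, was present in 4 of 8 windows (Aqp5, Bhlha15, Spdef and Epcam), and in 19.6% of all windows. In Aqp5 its matches began 175, 87 and 86 bases before the start, the last pair overlapping in a CACGTG. In Bhlha15 it began at base 20 after the start. Without the 50 bases after the start, 2 of 8 windows held it, against 16.6% of all windows. CCGGAT, a site of the ETS type that Spdef belongs to, was present in the windows of Bhlha15 (as ATCCGG, 179 bases before the start) and Xbp1 (100 bases before the start), and in 6.04% of all windows. The E-boxes CATATG and CAGCTG, the kind bound by Bhlha15, were in none of the 8 windows and in 3.91% and 16.3% of all windows. The ER stress response element, CCAAT and CCACG with 9 bases between them, was in none of the 8 and in 0.119% of all. In the windows with ACGTG, G and C made up 79.7% (Aqp5), 66.7% (Bhlha15), 53.3% (Spdef) and 57% (Epcam) of bases. The median over all windows was 52.7%, and the motif shares were not adjusted for this. All of these motif matches are matches of letters in a short window and show nothing of binding.

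Of the fluid transport genes, the water channel Aqp5 read 6.59 (wild type) and 8.29 (double knockout). This is a difference of 1.70, or 3.25-fold higher, the 15th largest of all measured genes in that direction. The wild-type value lay 0.39 above the floor. Slc5a8, a sodium-coupled transporter of short monocarboxylates such as lactate, had 6.78 and 8.55, a difference of 1.76 or 3.40-fold higher. Its wild-type value was also close to the floor, by 0.58. Slc12a2, the sodium, potassium and chloride cotransporter (NKCC1) that drives chloride into acinar cells and is made in many other cells, had 8.97 and 9.38. It was 1.33-fold higher, a difference of 0.41 that ranked 892nd among the measured genes.

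Measured relatives of Aqp5 and Slc5a8 were less than 2-fold apart in floored signal. Aqp5 and Slc5a8 were chosen with their values known, whereas the relatives were listed by family, so nothing is read from this contrast. In the aquaporin family 5 of 11 genes were measured, Aqp5 alone was past 2-fold upward and 0 were past it downward, and the median was -0.25. Aqp1, a channel of vessels, had 8.37 and 8.12, wild type first, and Aqp3, which also carries glycerol and is made in skin and oral epithelium, had 7.65 and 7.66. Aqp4, made in fast muscle fibres among other cells, was above the floor in the wild type alone (6.50 against 3.94), as was the glycerol channel Aqp7 (6.70 against 5.44). For these the floored differences of -0.29 and -0.50 are bounds. Aqp8, found in acinar cells of other glands, was below the floor on both arrays. In the SLC12 family 5 of 8 genes with a probe set were measured and none was 2-fold apart. Among all measured genes 0.513% were past 2-fold upward and 2.74% downward. The potassium and chloride carriers Slc12a7 and Slc12a4 differed by 0.33 and 0.12, Slc12a8 by at least 0.02, and Slc12a9 had the same deposited value of 6.74 on both arrays. Of 13 SLC5 genes 4 were measured, and 1 of them, Slc5a8, was at least 2-fold higher. The inositol carrier Slc5a3 differed by 0.45, Slc5a9 by at least 0.09 and the vitamin carrier Slc5a6 by -0.17, also a bound.

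**Figure D3:**
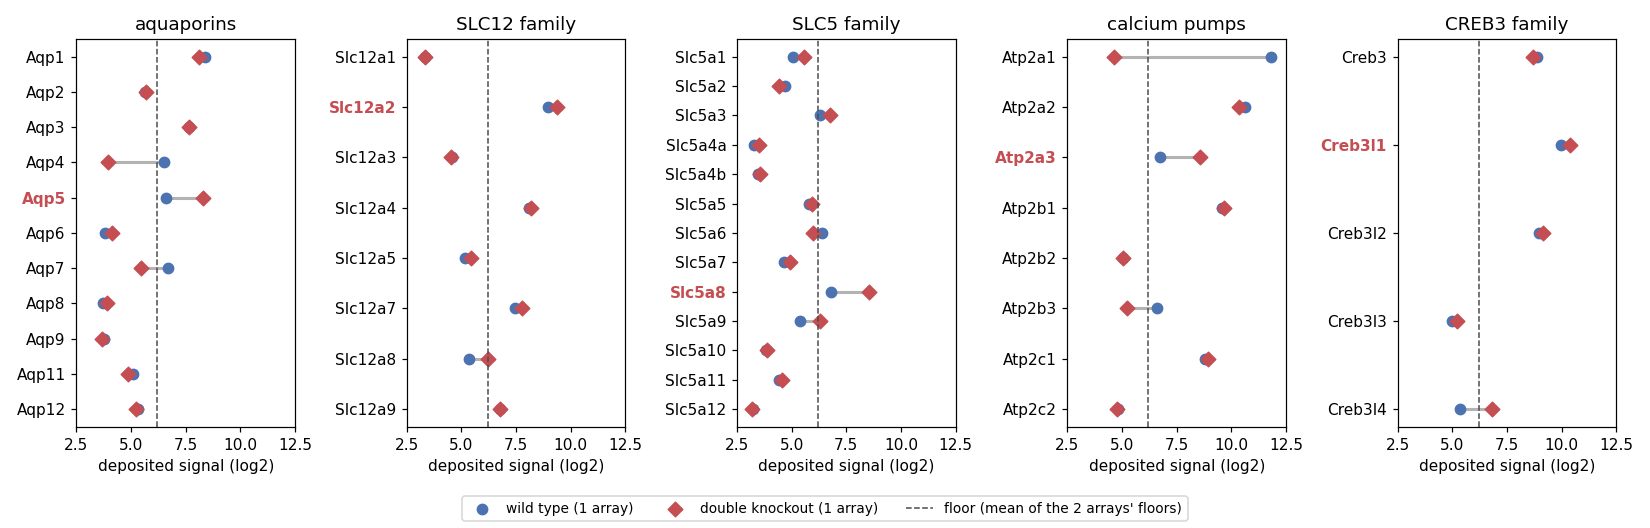
Deposited log2 signal on both arrays for every member with a probe set of 5 gene families, the genes described here in bold red and the floor dashed. Aqp5, Slc5a8 and Atp2a3 have their double-knockout diamond to the right, at 8.29, 8.55 and 8.55, whereas Atp2a1 runs from 11.82 in the wild type to 4.64 in the double knockout.

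Other channels, pumps and exchangers of fluid secretion were listed by function. Of 23 such genes 20 had a probe set and 14 were measured. Of these, 2 were past 2-fold upward, 1 downward and 11 neither, with a median of 0.32. Of all measured genes, 0.513% were past 2-fold upward and 2.74% downward. Kcnn4, a calcium-activated potassium channel that keeps the driving force for chloride exit, had 6.23 and 7.83 and was 3.03-fold higher. Its wild-type value lay only 0.03 above the floor. Carbonic anhydrase Car2, which osteoclasts also make, had 7.90 and 8.95 and was 2.06-fold higher, but fell short of 2-fold with the all-gene median difference centred on 0. Slc9a2, a sodium and proton exchanger, was lower (7.23 against 6.02), by at least 1.02 on the log2 scale. Fxyd3, a regulator of the sodium pump, was 1.83-fold higher. Ano1, the calcium-gated chloride channel of acinar cells, named here after its value was seen, had 7.50 and 8.38, a difference of 0.88. The duct chloride channel Cftr, also named after its values were seen, was below the floor on both arrays (4.26 and 4.83).

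Among calcium handling genes, the ER calcium pump Atp2a3 (SERCA3) gave 6.71 (wild type) and 8.55 (double knockout). The difference was 1.84, or 3.57-fold higher, the 11th largest in that direction. No other pump of its family was 2-fold higher, but Atp2a3 was chosen with its values known, so nothing is read from this. Atp2a1 (SERCA1), the pump of fast skeletal muscle, had 11.82 and 4.64 and was lower by at least 5.61 on the log2 scale. Atp2a2 (SERCA2), present in nearly all cells, had 10.63 and 10.34, a difference of -0.29. The plasma membrane pumps Atp2b1 and Atp2b3 differed by 0.09 and by -0.37 (a bound), and the Golgi pump Atp2c1 by 0.13. Atp2c2, a Golgi pump of secretory epithelia named after its values were seen, was below the floor on both arrays. Of 18 genes of calcium signalling with a probe set 14 were measured, 0 were 2-fold apart in either direction, and the median was 0.14. The shares of all measured genes past 2-fold were 0.513% upward and 2.74% downward. The store sensor Stim1 had the largest difference, -0.79 (8.42 against 7.63). The type 3 inositol trisphosphate receptor Itpr3, the form abundant at the apical pole of acinar cells, differed by 0.70, the store-operated channel Orai2 by 0.66 and the ATP-gated channel P2rx4 by 0.59. The muscarinic receptor Chrm3, the main trigger of salivation, was below the floor on both arrays (5.20 and 6.12; named after its values were seen).

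Among regulators of the secretory state, the basic helix-loop-helix factor Bhlha15 had 5.33 in the wild type, under the floor, and 7.59 in the double knockout. It was at least 2.62-fold higher, and the unfloored values differed by 2.26. Elapor1, a transmembrane protein linked to granule maturation in secretory cells, had 5.98 and 8.46 and was at least 4.79-fold higher, the largest difference of the 10 genes. Spdef, an ETS factor, had 5.83 and 6.60. It was at least 1.32-fold higher, with unfloored values 0.77 apart, and both lay within 0.40 of the floor. Xbp1, the factor made active by splicing when the ER is loaded with protein, had 9.98 and 10.25. Its difference of 0.27 was close to the SD of 0.22 between the differences of 2 probe sets of one gene on these arrays, taken over 528 genes. That SD is the only spread that could be measured, and it leaves out variation between animals and between arrays. The array gives no view of Xbp1 splicing. Creb3l1 (OASIS), an ER membrane factor that bone-forming cells also use for collagen secretion, had 9.94 and 10.38, a difference of 0.43. Of its family, Creb3l4 was at least 1.53-fold higher (5.33 against 6.82), while Creb3l2 and Creb3 differed by 0.16 and -0.16.

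The ER and transport genes that serve such cells were all less than 2-fold apart. Of 39 measured genes of ER folding, translocation and quality control, 38 were higher and 1 lower, and none was 2-fold apart. The median was 0.19, or 0.09 with the all-gene median difference centred on 0. Over all measured genes 66.9% were higher and the median was 0.10. Only 0.513% of them were past 2-fold upward and 2.74% downward. A list of this size with no gene past 2-fold is therefore near the background, and nothing is read from it. The translocon subunit Sec61b was 1.66-fold higher, the signal peptidase subunit Sec11c 1.55-fold and the mannosidase-like Edem1 1.40-fold, and Derl3, which exports misfolded proteins, at least 1.45-fold. Of 8 measured sensors and factors of the unfolded protein response none was 2-fold apart and the median was 0.15. Atf6b differed by 0.47, Ern1, the enzyme that splices Xbp1, by 0.40, the protease Mbtps1 by 0.25 and Nfe2l1 by -0.22. In ER to Golgi transport all 28 genes with a probe set were measured, 0 were 2-fold apart, and the median was 0.14. The COPII coat gene Sec23b stood highest at 0.76, followed by Copb1 (0.39), Mia3 (0.35) and Tmed9 (0.31). Of 21 granule and exocytosis genes with a probe set 9 were measured and 0 were 2-fold apart, with a median of 0.24. Rab3d, a GTPase of secretory granules, had 7.38 and 8.03, a difference of 0.64. Rab27b differed by 0.50, Stxbp2 by 0.47 and Sytl2 by -0.55.

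Epcam, a surface adhesion molecule of simple and glandular epithelium, had 7.21 and 8.08, a difference of 0.87 or 1.82-fold higher. The epithelial adhesion and junction genes were higher as well. Of 26 measured genes in that list all 26 were higher, 2 at least 2-fold and 0 lower. Their median was 0.63, with a range of 0.09 to 1.55. Ocln and Tjp3 had wild-type values under the floor, so they counted as measured only by being higher. The list was drawn up with earlier results of these data known, so nothing is read from its count. Of all measured genes, 66.9% were higher and 0.513% at least 2-fold higher. The claudin Cldn10 was 2.92-fold higher (7.01 against 8.55), and the simple-epithelium keratins Krt18 and Krt8 were 2.46-fold and 1.90-fold higher. Cldn3 was 1.90-fold higher, with a wild-type value 0.27 above the floor. Epcam lay inside that range, with 4 of the 26 above it. Aqp5, Slc5a8, Atp2a3 and Elapor1 (a bound) lay above the highest of them. These genes were chosen with their values known, so nothing is read from that. Of 20 measured transcription factors of glandular epithelium 2 were at least 2-fold higher, 0 lower and 18 neither, with a median of 0.46. The share of all measured genes at least 2-fold higher was 0.513%. The epithelial ETS factor Ehf had 7.61 and 8.86 and was 2.38-fold higher, and the pioneer factor Foxa1 had 6.35 and 7.38 and was 2.03-fold higher. With the all-gene median difference centred on 0, 1 of these 2 stayed past 2-fold. Foxc1, needed for gland development, was 1.86-fold higher, and Sp6, a factor of dental epithelium, 1.87-fold. The wild-type values of Foxa1 and Foxc1 lay only 0.15 and 0.11 above the floor.

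**Figure D4:**
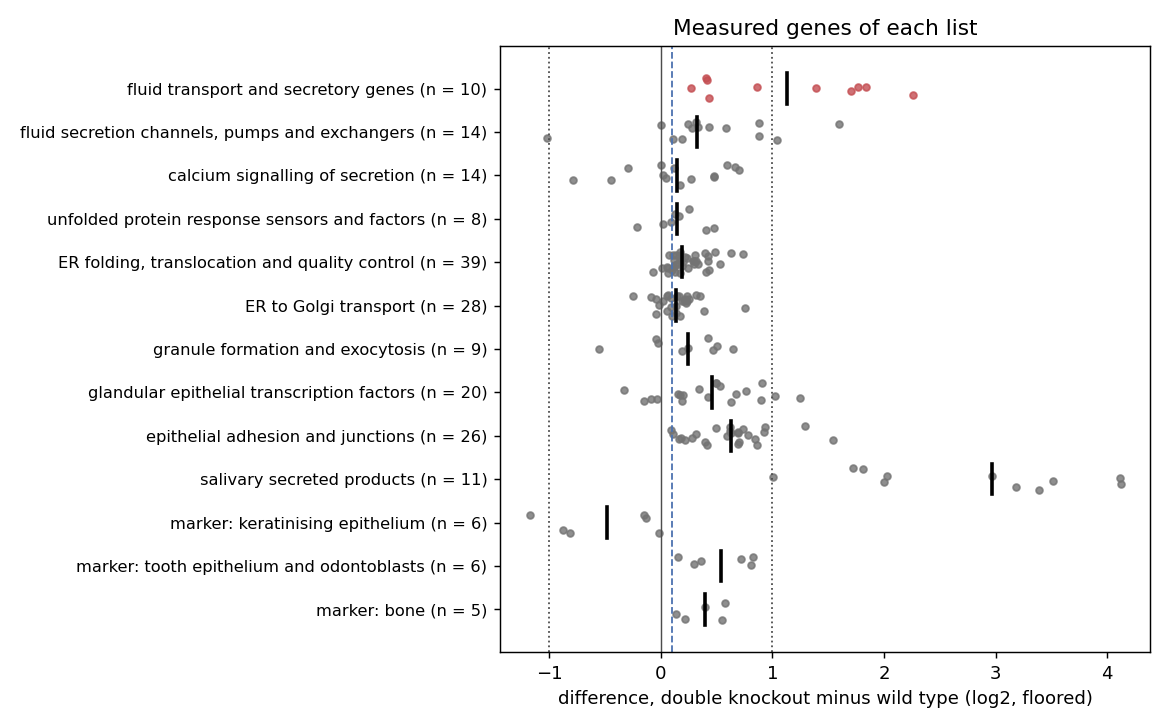
Log2 differences (double knockout minus wild type, floored) of the measured genes of each list, 1 point a gene, with black bars at list medians, the blue dashed line at the median of all measured genes (0.10) and dotted lines at 2-fold. The ER and transport lists sit close to the blue line, with medians of 0.14 to 0.19, and the epithelial junction list has a median of 0.63.

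Markers of other cell types were read beside these genes. As background for the counts below, 66.9% of all measured genes were higher. Past 2-fold were 0.513% upward and 2.74% downward. The salivary secreted products, a list drawn up with these values known, had 11 of 15 genes measured and all 11 past 2-fold upward (10 after quantile normalisation). For 3 of the 11 (Prol1, Car6 and Ccl28) the wild-type value was under the floor. They counted as measured only by being higher, and their differences are bounds. The other 4 genes were below the floor on both arrays. The linear signals of the same 15 probe sets added up to 4825 and 24530, sums in which bright probe sets such as those of Dcpp1 (11.01 and 12.01) and Bpifa2 (9.36 and 12.54) weigh most. Keratinising epithelium markers went the other way but unevenly, with 6 of 6 measured markers lower and 1 of them past 2-fold (Sprr1a, 9.59 against 8.42). Lor and Krt4 differed by -0.88 and -0.81, but Krt1, Krt13 and Krt10 by only -0.02, -0.14 and -0.15. Summed signals of this list were 6970 and 5422. All 6 markers of tooth epithelium and odontoblasts were higher, none 2-fold, with summed signals of 10322 and 12976. All 5 bone markers with a probe set were higher too, none 2-fold, with a median of 0.40 and summed signals of 13471 and 16071; the difference of Creb3l1, which bone-forming cells also make, was 0.43. Of the basal and myoepithelial markers, Krt5 and Krt14 differed by 0.11 and 0.35, and Acta2, which smooth muscle also makes, by -0.93. The part of these cell types in the differences of the 10 genes was not tested. Of 5 markers of B and plasma cells with a probe set, Mzb1, Jchain, Cd79a and Cd79b were below the floor on both arrays, and Sdc1, which epithelium also makes, had 8.92 and 9.34, a difference of 0.43. The same held for all 4 thyroid markers and all 5 pancreatic acinar markers with a probe set. The goblet mucins Muc2 and Muc5ac were below it too, Muc5b was lower (7.62 against 6.88), and Agr2, a folding enzyme of mucous cells, was higher (7.73 against 8.67). Of 6 macrophage markers 2 were higher (Cd68 by 0.87 and Csf1r by 0.57) and 4 lower. None of these was 2-fold apart, nor was any of 5 endothelial markers or 2 measured markers of gland innervation. The part of these cell types was not tested either.

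The labels were checked on the targeted genes and on the tissue. Myf5 had 6.31 in the wild type and 4.95, under the floor, in the double knockout, and Myod1 had 7.14 and 6.49. Both differ in the direction of the label, but by little: the floored Myf5 difference is a bound of -0.11, and Myod1 was 1.58-fold lower and stayed 0.28 above the floor in the sample labelled null for it. Which part of each gene its probe set covers was not examined. All 12 skeletal muscle markers were past 2-fold downward, beside 2.74% of all measured genes, with a median of -5.21. As 11 of the 12 differences are bounds, this median is set by the floor, and it was -6.54 with the lower floor at the 25th percentile. The 5 bone and 6 tooth markers with a probe set were above the floor on both arrays. Of 6 cartilage markers Col2a1 (8.77 and 9.26), Acan (7.64 and 7.32) and Hapln1 (6.64 and 6.98) were above it on both, and Matn1, Col9a1 and Comp were below it on both. Sex-linked transcripts differed between the arrays. Deposited values of Eif2s3y (2.38 and 6.55), Uty (2.43 and 6.20) and Kdm5d (3.42 and 5.27) were higher in the double knockout, Uty and Kdm5d staying under the floor. Xist was lower there (10.87 and 10.22). With 1 array per genotype, sex and genotype cannot be told apart, and the part of sex in these results was not tested.

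The count of genes past 2-fold depended on the floor. With the all-gene median difference centred on 0 or after quantile normalisation all 10 genes stayed higher and 5 stayed at least 2-fold higher. When the floor was raised to the 75th percentile (7.69 and 7.74), the differences of Aqp5, Slc5a8, Atp2a3 and Elapor1 became bounds of 0.60, 0.85, 0.86 and 0.77, Bhlha15 and Spdef were no longer measured, and 0 of the 10 were at least 2-fold higher. Kcnn4, Cldn10 and Foxa1 were not past 2-fold at that floor either. Without a floor, Aqp4, Aqp7 and Atp2b3 differed by -2.56, -1.27 and -1.37 and Creb3l4 by 1.49, all past 2-fold.

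**Figure D5:**
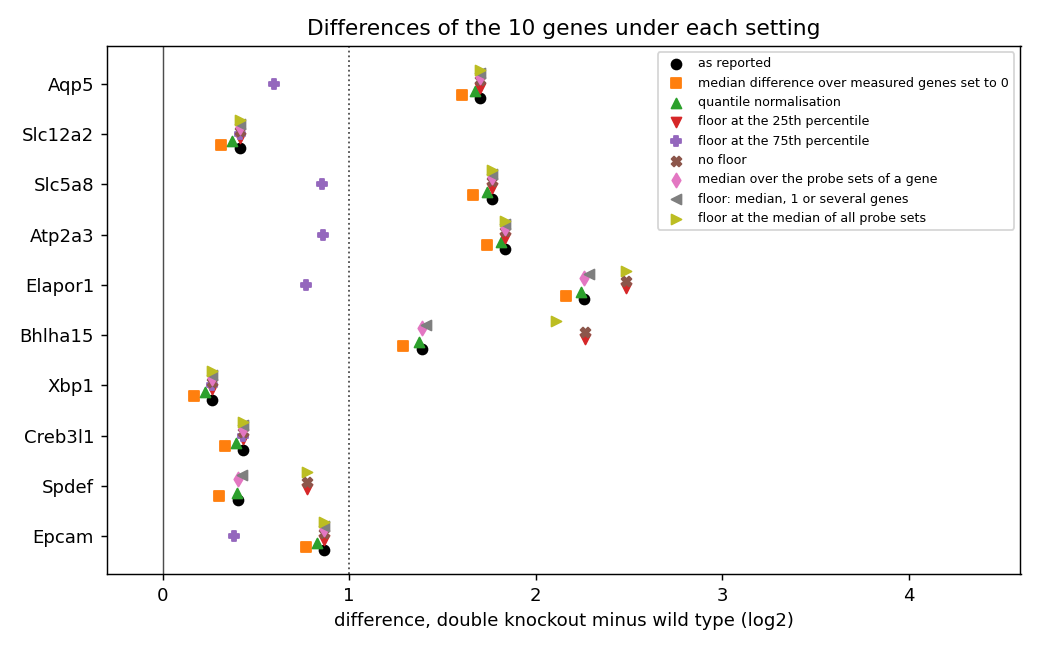
Log2 difference of each of the 10 genes under 9 settings of floor, scaling and probe set rule, with a solid line at 0 and a dotted line at 2-fold. All points lie above 0; the points left of the dotted line for Aqp5, Slc5a8, Atp2a3 and Elapor1 come from the 75th percentile floor.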

How the data were processed

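The deposited table holds log2 signals of 35557 probe sets on 2 arrays; MAS5 is named in the submitters' processing notes, with no version. The step that gave logarithms, the background correction, the scaling between arrays and the genome build are not given in the sources used here. The base of 2 was read from the deposited values (1.42 to 13.35). Array medians over all probe sets were 5.48 and 5.45, and the log2 values were compared as deposited. Over measured genes the median difference was 0.10. Centring it on 0 lowered the count of genes at least 2-fold higher from 53 to 37. The number of arrays limits the precision.

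Probe sets naming 1 gene (21789) were named through GEO's platform annotation, and 19856 of 19939 genes were found in a RefSeq table of GRCm38.p6. Probe sets naming several genes (1621) or none (12147) were left out; none of the former names a gene described here. A gene is represented by its brightest probe set. The genes and lists were chosen with earlier results of these data known. Named genes are the 10 genes, measured relatives in their 5 families, up to 4 genes of each other list with the largest differences, and Myf5 and Myod1. Aqp8, Atp2c2, Ano1, Cftr, Chrm3, Dcpp1, Bpifa2, Eif2s3y, Uty, Kdm5d, Xist and the markers given as below the floor were named after their values were seen. Alternatives changed the scaling, the floor (percentiles 25 and 75, or none), the probe set rule, the fold threshold (1.5 and 3) and the promoter window. Computation used Python 3.11.15 with pandas 2.3.3 and numpy 2.4.6 and was tested on simulated data.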

Additional observations from a re-analysis of the deposited data

How the results depend on the processing

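At a floor of the 75th percentile, 0 of the 10 genes were at least 2-fold higher and their median difference was 0.51 over 8 measured genes, because more wild-type values lay under that floor. Under the other floors and scalings and with the median over probe sets, 5 genes were at least 2-fold higher, 0 at least 2-fold lower, and the median was between 1.03 and 1.28; at thresholds of 1.5-fold and 3-fold the counts were 6 and 4. Floors at the median of probe sets with 1 or several genes and of all probe sets were chosen after seeing the data. Bhlha15 ranged from 1.29 to 2.26 and Spdef from 0.30 to 0.77 where they were measured. Over all genes the count at least 2-fold higher was 53 as reported, 37 when the all-gene median was centred on 0 and 21 under the 75th percentile floor; at 1.5-fold it was 316 and at 3-fold 18. The count lower was 283 as reported and 138 under the 75th percentile floor. Under the 75th percentile floor the medians of the aquaporins and calcium pumps turned to 0.17 and 0.09, and under the 25th percentile floor the calcium pump median was 0.009. No paired analysis was possible because each genotype has 1 array, and no array could be left out.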
